A study of Mus musculus with 2 samples.

Results

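Droplet barcodes with more than 10% of their unique molecular identifiers (UMIs, tags that mark single captured RNA molecules) in mitochondrially encoded genes made up 120 of the 1303 barcodes of this series. They were selected on that share alone, over the 13 genes whose symbols start with mt-. The Renilla library held 43 such barcodes among 651 (6.61%, exact Clopper-Pearson 95% interval 4.82 to 8.79) and the Jumonji library held 77 among 652 (11.8%, 9.43 to 14.5). The remaining 608 Renilla and 575 Jumonji barcodes, at or below 10%, served as the contrast within each library.

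Both libraries came from mouse primary leukaemia cells with the MLL-AF9 fusion, an oncoprotein of acute myeloid leukaemia, and with the nuclease Cas9, grown in RPMI medium with 10 ng/ml interleukin-3. The Renilla cells carried a guide RNA against Renilla luciferase, a gene that mice lack, and the Jumonji cells a guide RNA against the Jumonji domain of the histone demethylase JMJD1C. Each condition was 1 droplet library from 10x Genomics 3′ chemistry. Without a replicate, no test was made, and all intervals cover counting error only. Whether the cultures came from 1 clone or a pool, and how many guides were used, is not given in the sources used here.

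A high mitochondrial share is a common reason to discard a barcode, because cells with a damaged outer membrane can lose cytosolic RNA and keep their organelles. Messenger RNAs of secreted and membrane proteins are translated on the endoplasmic reticulum (ER), where a hydrophobic stretch of the growing protein is recognised and docked, while those of cytosolic proteins are translated on free ribosomes. The genes put forward as marks of these barcodes were Malat1, a long non-coding RNA held in the nucleus, and Mpo and Ctsg, which encode myeloperoxidase and cathepsin G, enzymes made on the ER and stored in the primary granules of promyelocytes. Damage to the cells was not measured here.

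The selected barcodes carried about as many mitochondrial UMIs as the others and far fewer UMIs of all other genes. Mitochondrial UMIs per barcode had a median of 942 (522 to 1658) in the 43 Renilla barcodes and 828.5 (141 to 1715) in the rest of that library. For the Jumonji barcodes the medians were 771 (416 to 1750) and 610 (3 to 1764). UMIs outside the mitochondrial genes fell on a different scale, with a median of 4345 (2604 to 9953) against 22710 (4097 to 54161) in the Renilla library and 4038 (2885 to 11331) against 21544 (3392 to 60415) in the Jumonji library. The ranges of mitochondrial UMIs overlapped almost fully. Those of the other UMIs overlapped from 4097 to 9953 (Renilla) and from 3392 to 11331 (Jumonji), which took in the median member of both libraries. The share that chose the barcodes is built from both counts, so these values are a description of the choice. For genes other than the mitochondrial ones, fewer transcripts per cell and a lower capture of those transcripts cannot be told apart from them.

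The mitochondrial share had a median of 15.7% in the Renilla members and 15.02% in the Jumonji members, up to 32.8% and 26.6%, against medians of 3.43% and 2.64% in the other barcodes. Members nearest the threshold stood at 10.1%, 10.1% and 10.4% (Renilla) and at 10.0%, 10.2% and 10.4% (Jumonji). The nearest barcodes outside it stood at 9.91%, 9.56% and 9.36% and at 9.84%, 9.46% and 9.45%. No cell barcode sequence was shared by the libraries. Scrublet, a doublet caller, marked 11 Renilla barcodes (1.69%) and 1 Jumonji barcode (0.153%), and 0 of them were members.

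The make-up of the mitochondrial RNA itself was nearly the same on both sides of the threshold. The ATP synthase subunit gene mt-Atp6 held 25.5% of the members' mitochondrial UMIs and 24.6% of the others' in the Renilla library, and 25.4% against 25.03% in the Jumonji library. The cytochrome oxidase gene mt-Co3 held 19.7% against 19.3% and 19.6% against 19.1%. Small shifts exceeded counting error in both libraries, such as mt-Nd1, a complex I subunit gene, at 16.5% against 15.4% (Renilla) and 14.02% against 13.3% (Jumonji), and mt-Nd2, another complex I subunit gene, at 2.83% against 3.44% and 2.72% against 3.09%. The scarce mt-Nd6 rested on 8 Renilla and 12 Jumonji UMIs in the members.

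Levels are given as CPM, the usual per-library scaling of counts, here taken over non-mitochondrial UMIs only, summed over the barcodes of a group, so that the mitochondrial share does not lower every other gene. Members held 209894 such UMIs for Renilla and 357376 for Jumonji, and the other barcodes held 13914817 and 12452752. Genes with a mean of at least 50 CPM over both groups were counted, and a gene was called higher or lower where the levels were at least 2-fold apart. Of 3055 genes counted in the Renilla library, 638 were called higher in the members (20.9%) and 227 lower (7.43%). Of 3019 counted in the Jumonji library, 863 were called higher (28.6%) and 336 lower (11.1%). The median log2 ratio of all counted genes was 0.28 and 0.18, so ratios of single genes and lists are read against these values. With ratios centred on that median, 385 Renilla genes were higher and 422 lower, and 750 and 479 Jumonji genes. Scaled to all UMIs, the calls split into 370 and 352 in the Renilla library and 669 and 474 in the Jumonji library.

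Ribosomal protein mRNAs, divided the members of the Renilla library into separate kinds and were low in nearly all Jumonji members. Their share of non-mitochondrial UMIs had a median of 24.5% (4.99 to 42.6) in the Renilla members and 34.7% (23.4 to 45.8) in the other Renilla barcodes. It had a median of 11.4% (6.29 to 39.2) in the Jumonji members and 32.7% (6.38 to 43.6) in the others. Of the 43 Renilla members, 21 were under 20%, 2 lay between 20% and 30%, and 20 lay between 30% and 50%, as the other Renilla barcodes did. The 18 Renilla members under 10% had a median mitochondrial share of 24.1%, and the 13 between 30% and 40% had 12.4%. In the Jumonji library 68 of 77 members were under 20% and 1 was above 30%. Among barcodes at or below the threshold, 0 of 608 Renilla and 14 of 575 Jumonji barcodes were under 20%, and those 14 had mitochondrial shares of 4.75% to 9.84%. A low ribosomal share therefore crossed the 10% line downwards in the Jumonji library, and the ordinary share crossed it upwards in the Renilla library.

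**Figure D1:**
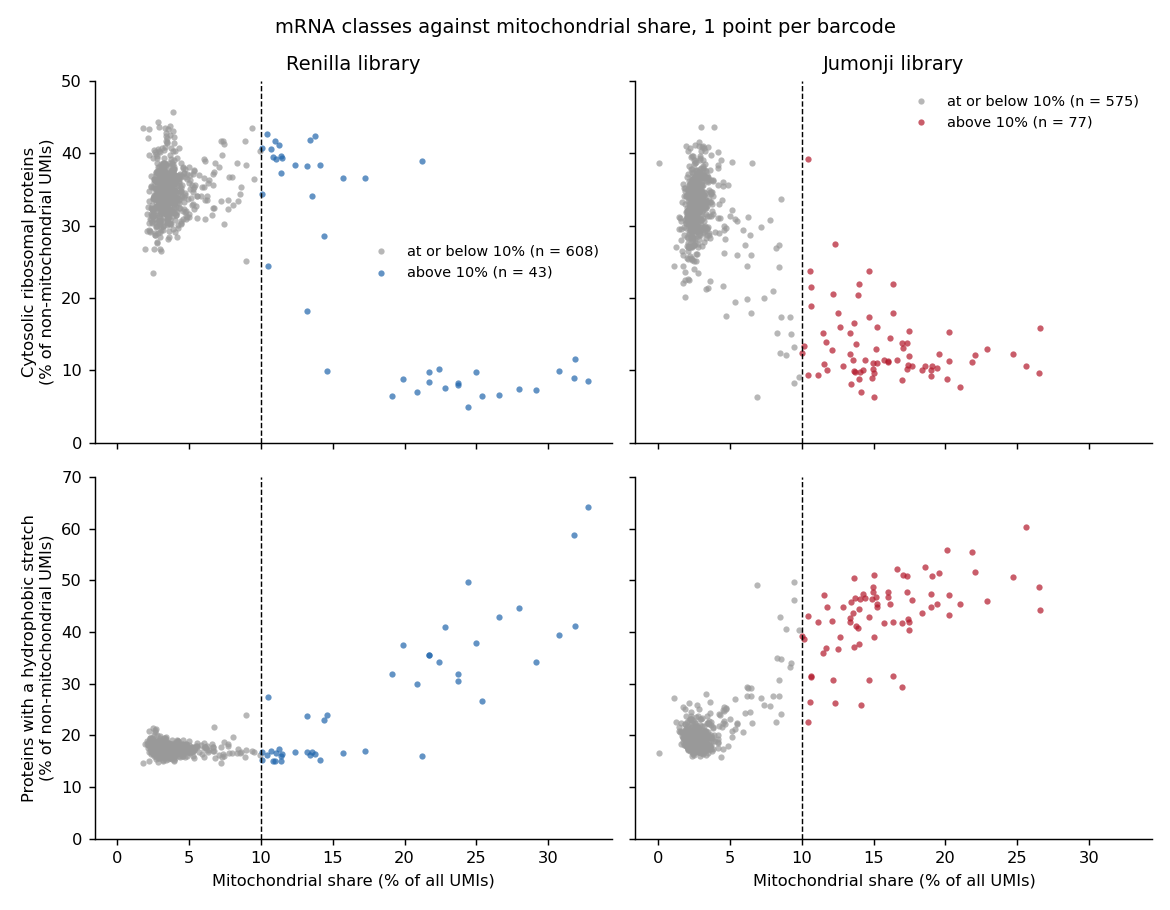
Share of non-mitochondrial UMIs in cytosolic ribosomal protein genes (upper panels) and in genes whose protein has a hydrophobic stretch (lower panels) against the mitochondrial share of all UMIs, in percent, 1 point per barcode, with the 10% threshold dashed. In the Renilla library 20 of 43 members keep a ribosomal share of 30% to 50% and 21 are under 20%, while 68 of 77 Jumonji members are under 20%.

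The ratios were ordered by the kind of protein that the genes encode. Each protein was translated from GENCODE M21 and placed in 1 of 3 classes by its Kyte-Doolittle hydropathy: a hydrophobic stretch near the N-terminus, as signal peptides and many membrane anchors have, an internal stretch only, as other membrane proteins have, or neither. The classes are approximate, and some cytosolic proteins fall into a stretch class, such as the ribosomal proteins Rplp1 (N-terminal) and Rps27 (internal). In the Renilla library the 361 genes with an N-terminal stretch had a median log2 ratio of 0.86 and 46.5% were called higher. The 459 with an internal stretch had a median of 0.67 with 32.5% higher, and the 2191 with neither had 0.13 with 14.2% higher. For the Jumonji barcodes the same classes held 471, 509 and 1992 genes with medians of 1.73, 1.09 and -0.17, and 79.0%, 52.8% and 10.3% were called higher. Genes with either kind of stretch were 49.7% of those called higher and 14.1% of those called lower in the Renilla library, beside 26.8% of all counted. In the Jumonji library they were 74.3% and 8.93%, beside 32.5% of all. A gene could reach the minimum level through the members alone, so these medians and shares are not independent of the filter. The classes also hold different genes in each library. Over all genes, without the filter, the N-terminal class held 12.2% of the Renilla members' non-mitochondrial UMIs, beside 7.30% in the others. In the Jumonji library it held 23.9% beside 8.74%.

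Protein length went with the ratio too, more so in the Renilla library. Across genes, which are not independent replicates, Spearman's rho between protein length and log2 ratio was 0.68 over 3011 Renilla genes and 0.49 over 2972 Jumonji genes. In the Renilla library the tercile of shortest proteins (37 to 243 residues) had a median log2 ratio of -0.46, and the tercile of longest ones (483 to 4882 residues) had 0.91. The order of the classes was kept within each tercile. Among the shortest proteins the medians were -0.52 for neither, -0.39 for internal and -0.18 for N-terminal stretches in the Renilla library, and -0.73, 0.17 and 1.22 in the Jumonji library. Among the longest they were 0.83, 1.04 and 1.59 (Renilla) and 0.45, 1.27 and 1.91 (Jumonji). Among short proteins with an N-terminal stretch, 74 of 135 were called higher in the Jumonji members and 7 of 116 in the Renilla members. With members above 15%, the Renilla count was 44 of 133 and the median 0.40. The difference between the libraries was not tested.

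Per barcode, the genes with a hydrophobic stretch held a median of 23.8% (14.97 to 64.2) of non-mitochondrial UMIs in the Renilla members and 17.2% (14.6 to 23.9) in the other Renilla barcodes. For the Jumonji barcodes they held 44.8% (22.5 to 60.3) and 19.1% (15.9 to 49.6). The share followed the mitochondrial share within the members. Pooled over the 21 Renilla members between 10% and 15% it was 17.8%, near the 17.3% of the 464 barcodes between 2% and 4%, and it was 32.0% over the 14 members between 15% and 25% and 42.3% over the 8 above 25%. In the Jumonji library it was already 30.2% over the 26 barcodes between 6% and 10%, and then 38.1% (38 barcodes), 46.0% (36 barcodes) and 51.5% (3 barcodes). Spearman's rho between both shares was 0.80 over the 43 Renilla members and 0.58 over the 77 Jumonji members, as a description only, since each point is 1 barcode of 1 library and depth fell along the same axis (rho of -0.81 and -0.59 between mitochondrial share and non-mitochondrial UMIs).

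Genes of the ER were high as a list in both libraries. Of the counted ER chaperones and unfolded protein response genes, 11 of 16 were called higher in the Renilla members and 17 of 17 in the Jumonji members, with median log2 ratios of 1.38 and 1.84. Hspa5 (chromosome 2, 34771970 to 34777547, plus strand, mm10), the main luminal chaperone BiP, stood at 1706 CPM in the Renilla members (Poisson 95% interval 1534 to 1892) and 248 in the other barcodes. For the Jumonji barcodes it stood at 1500 CPM (1376 to 1632) and 220. The log2 ratios were 2.78 (2.62 to 2.94) and 2.77 (2.63 to 2.90). Over single barcodes the lowest, median and highest levels were 0, 711 and 9788 CPM in the Renilla members and 0, 200 and 1362 in the rest, so the distributions overlapped while the members reached levels that no other Renilla barcode had. The calcium-binding chaperone gene Calr had log2 ratios of 1.98 and 2.31, the disulfide isomerase genes Pdia6 and Pdia4 had 2.55 and 2.44 and 2.16 and 2.52, and the chaperone gene Hsp90b1 had 1.88 and 2.23. The lowest Renilla ratios of the list were those of Edem1, a gene of ER-associated degradation, at 0.20, and of Sdf2l1, a co-chaperone gene, at 0.33, whereas both were called higher in the Jumonji members, at 1.34 and 1.79.

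The translocon and secretion list, which holds the machinery that brings proteins into the ER, had genes called in both directions. In the Renilla members 7 of 20 counted genes were called higher and 3 lower (median 0.45), and in the Jumonji members 14 of 20 higher and 2 lower (median 1.86). The oligosaccharyltransferase genes, which encode membrane enzymes that add sugar chains, led it: Rpn2 stood at 1139 CPM in Renilla members, where the others had 175, and 1214 CPM in Jumonji members, where the others had 227, with log2 ratios of 2.70 and 2.42. Stt3a had 2.21 and 2.61, and Rpn1 had 2.18 and 2.58. At the other end stood Srp9, which encodes a small cytosolic protein of the signal recognition particle, with -1.43 and -1.71, and Sec61b, which encodes a short subunit of the translocon channel, with -1.09 and -1.27. Srp14, the partner of Srp9, had -1.35 and -0.40.

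Lysosome genes were high as a list as well, with 14 of 18 counted genes called higher in the Renilla members and 17 of 19 in the Jumonji members, 0 lower in either, and medians of 1.83 and 1.82. The protease gene Ctsd stood at 548 CPM beside 120 in the others (Renilla) and 1698 beside 258 (Jumonji), with log2 ratios of 2.197 and 2.72. Ctsc, the gene of the protease that activates granule serine proteases, had 2.48 and 2.36, Psap, the gene of a lysosomal activator precursor, had 2.08 and 2.19, and Gusb, a glucuronidase gene, had 1.899 and 2.10. The cytosolic proton pump subunit gene Atp6v1a had 0.23 and 0.10. Depth was partly matched by using only those barcodes at or below 10% that lay within the members' depth range. These were 33 Renilla and 83 Jumonji barcodes with medians of 7599 and 8938 UMIs, still above the members' 4345 and 4038, and with median mitochondrial shares of 7.31% and 3.32%. Against them the list's median was 1.71 for Renilla and 0.94 for Jumonji.

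Among the genes called higher in both libraries by the widest margin, most encode proteins of the ER, granules, lysosome or cell surface. Of 2601 genes counted in both, 328 were higher in both (12.6%), which is 67.9% of the 483 higher in the Renilla library and 52.99% of the 619 higher in the Jumonji library. Besides Mpo, Hspa5, Pdia6, Rpn2, Ctsg and Ctsc, the rule named Tap2, a subunit of the ER peptide transporter, with log2 ratios of 2.75 and 3.22, Napsa, an aspartic protease gene, with 2.64 and 2.52, and Man2b1, a lysosomal mannosidase gene, with 2.95 and 2.43. It further named Os9, a lectin gene of ER-associated degradation, with 2.73 and 2.48, Retsat, which encodes an ER retinol saturase, with 2.62 and 2.69, and Adgre1, the surface receptor F4/80, with 2.62 and 2.29. Man2b1 was the only one of these 12 placed in the class with neither stretch.

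**Figure D2:**
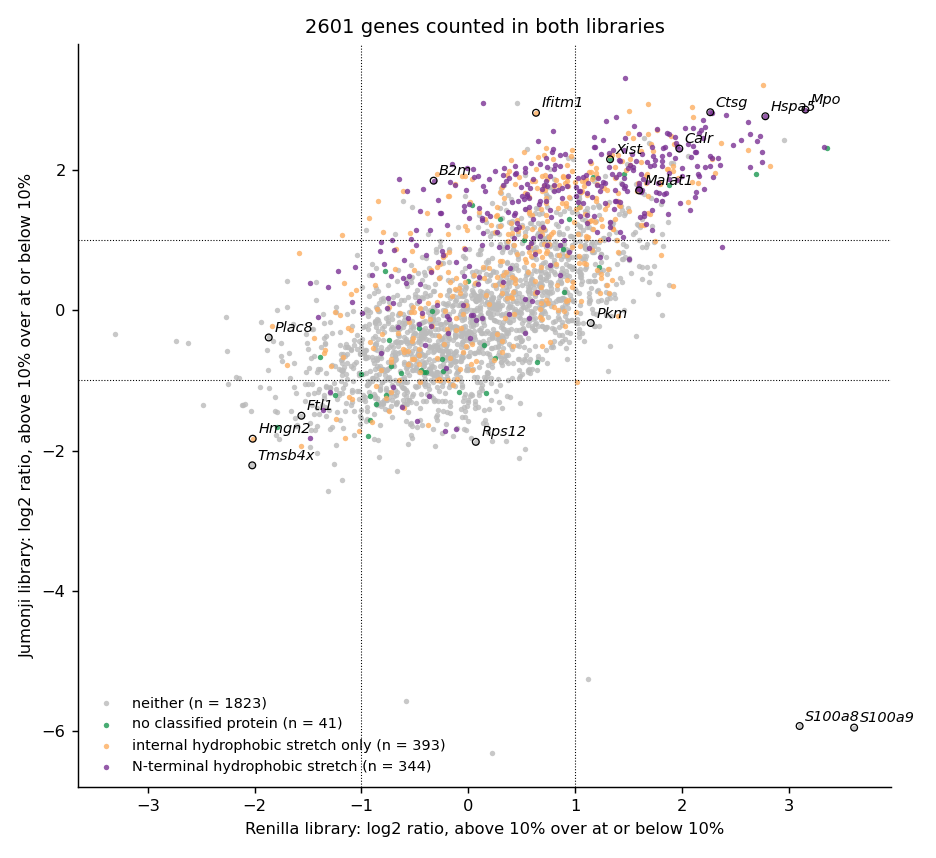
Log2 ratio of CPM, members over the other barcodes, in the Renilla library (horizontal) and the Jumonji library (vertical) for the 2601 genes counted in both, coloured by protein class, with dotted lines at 2-fold and named genes circled. Genes with an N-terminal stretch gather at the upper right with Mpo (3.16 and 2.86) and Hspa5 (2.78 and 2.77), while S100a8 and S100a9 at the lower right rest on 1 Renilla barcode.

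Mpo (chromosome 11, 87793581 to 87804413, plus strand) stood at 5608 CPM (5292 to 5937) in the Renilla members and 629 in the other Renilla barcodes, and at 512 CPM (441 to 592) against 70.3 in the Jumonji library. The log2 ratios were 3.16 (3.07 to 3.24) and 2.86 (2.63 to 3.10). Single Renilla members ranged from 0 over a median of 1789 to 45004 CPM, and the other Renilla barcodes from 0 over 427 to 4028. In the Jumonji library the median member had 0 Mpo UMIs, and 1 barcode held 27.9% of the 183 UMIs in all members. Without it the log2 ratio was 2.41.

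Ctsg (chromosome 14, 56099881 to 56102574, minus strand) stood at 2787 CPM in Renilla members, where the others had 580, and 635 CPM in Jumonji members, where the others had 89.5, with log2 ratios of 2.26 (2.14 to 2.39) and 2.83 (2.61 to 3.03). The other genes of the promyelocyte list did not follow. Elane, the neutrophil elastase gene, stood at 2006 against 1833 CPM and 700 against 751 CPM. Prtn3, the proteinase 3 gene, stood at 1720 against 1783 CPM and 842 against 800 CPM. The intervals of these 4 ratios included 0, even though both proteins enter the same granules and have an N-terminal stretch. Ms4a3, a membrane protein gene of granulocyte progenitors, was lower, at 262 against 585 CPM (log2 -1.16) and 42.0 against 148 CPM (-1.82). With members above 15% its Renilla ratio was -0.43, no longer 2-fold. Cebpe, a transcription factor gene of granulocyte maturation, stood at -0.67 and -2.29. Over the 6 counted genes of the list the medians were 0.04 and -0.01, below those of all counted genes. With members above 15%, 3 of 6 were called higher and 0 lower in the Renilla library (median 0.56, beside 0.66 over all counted genes). In the Jumonji library 2 of 6 were then higher and 2 lower (median -0.16).

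Within the Renilla members, the pooled levels of Mpo and Ctsg were highest in the ranges of highest mitochondrial share. Pooled Mpo was 1044 CPM between 10% and 15%, 11289 between 15% and 25%, and 18159 above 25%, beside 601 to 978 between 2% and 10%. Ctsg went from 743 to 5770 and 7503 CPM along the same 3 ranges, and Hspa5 from 443 to 3679 and 4350. Elane was high only from the middle range on, going from 923 to 2963 and 5787 CPM. For the Jumonji barcodes Hspa5 climbed in steps, from 205 CPM between 2% and 4% over 714 between 6% and 10% to 1334, 1688 and 2360 in the 3 ranges above the threshold. Mpo there was 501, 534 and 429 CPM in those ranges, of which the last rests on 3 barcodes.

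**Figure D3:**
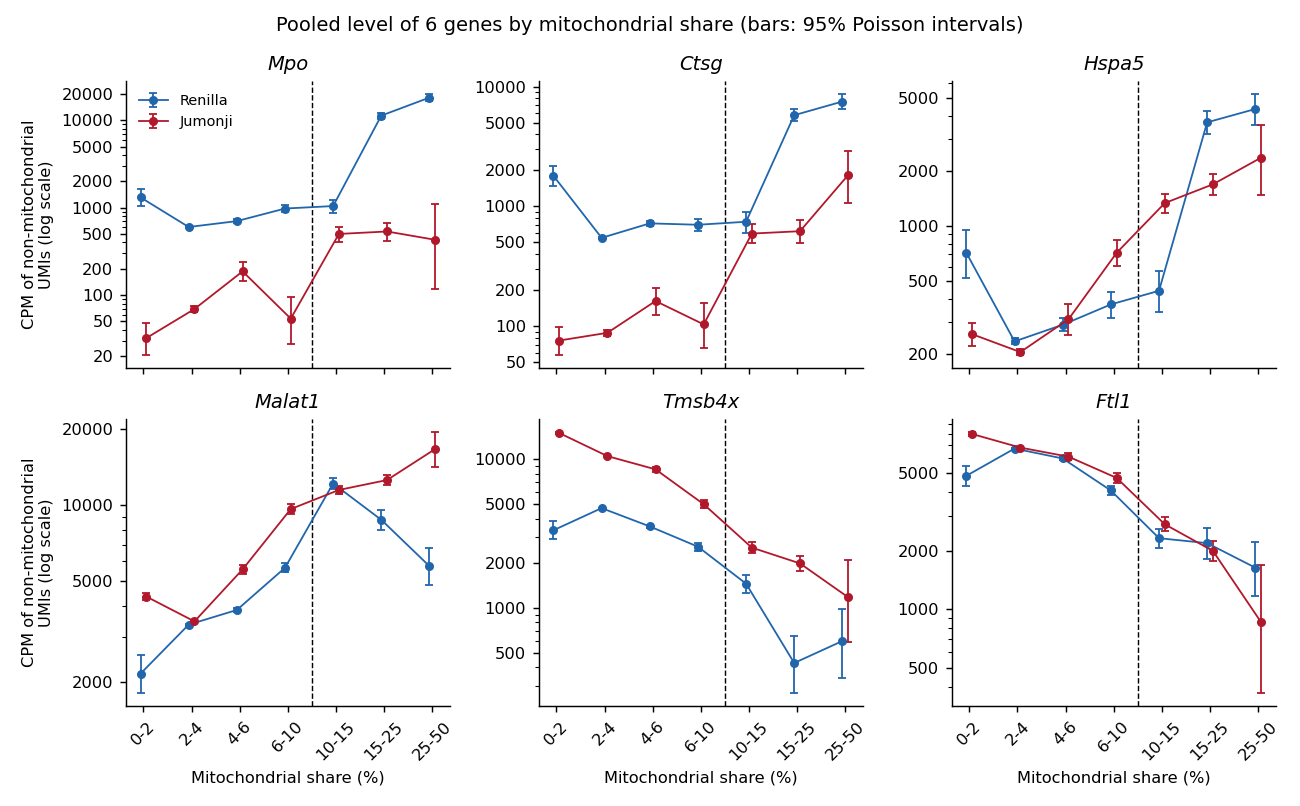
Pooled CPM (log scale) of 6 genes by range of mitochondrial share, with exact 95% Poisson intervals and the 10% threshold dashed. Renilla Mpo goes from 1044 CPM between 10% and 15% to 18159 above 25%, Malat1 peaks there at 12215 CPM between 10% and 15%, and Tmsb4x and Ftl1 fall on both sides of the threshold (the 0-2% range holds 2 Renilla and the 25-50% range 3 Jumonji barcodes).

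Nuclear RNAs were high in a different pattern. Malat1 (chromosome 19, 5795690 to 5802672, minus strand) stood at 10596 CPM in Renilla members, where the others had 3497, and 12082 CPM in Jumonji members, where the others had 3691, with log2 ratios of 1.599 (1.54 to 1.66) and 1.71 (1.67 to 1.76). By range of mitochondrial share, Renilla Malat1 was highest between 10% and 15%, at 12215 CPM, and lower above 25%, at 5747, opposite to Mpo. Jumonji Malat1 was 11517, 12610 and 16736 CPM in the same ranges. Against barcodes within the members' depth range, the log2 ratio of Malat1 was 0.88 and 0.41, no longer 2-fold, while that of Hspa5 was 2.54 and 2.36 and that of Mpo 3.09 and 4.61. Xist, the X inactivation RNA, had ratios of 1.33 and 2.15, and Kcnq1ot1, an imprinted nuclear RNA, had 1.17 and 1.897. Xist had 0.57 and 1.21 within that depth range. Tsix, antisense to Xist, had 3.36 and 2.32, but without a stated use of strand its reads cannot be told apart from those of Xist, which overlaps it. Of the nuclear-retained list 3 of 5 counted genes were called higher in the Renilla members and 5 of 5 in the Jumonji members. Neat1, the RNA of paraspeckles, is among the latter, at 1.51 against 0.04 in the Renilla library, and at -0.21 within the members' depth range.

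The list of large chromatin and helicase proteins had 6 of 22 counted genes higher in the Renilla members and 12 of 22 in the Jumonji members, 0 lower, and medians of 0.75 and 1.03, beside 0.91 and 0.81 over the tercile of longest proteins. The hydropathy rule placed some of these very long proteins in the internal class. Among those, Huwe1, a ubiquitin ligase gene, had log2 ratios of 1.298 and 1.72, and Ash1l, a histone methyltransferase gene, had 1.296 and 1.51. Son, a splicing co-factor gene of the class with neither stretch, had 1.499 and 1.47. Jmjd1c (chromosome 10, 67096125 to 67256326, plus strand), the targeted gene, stood at 253 CPM in Renilla members, where the others had 146, and 381 CPM in Jumonji members, where the others had 115, with log2 ratios of 0.80 (0.37 to 1.19) and 1.72 (1.46 to 1.98). They were 0.29 and 1.12 within the members' depth range. The 3′ tags do not read the guide's cut site, so these levels do not check the editing.

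Ribosomal protein genes were mostly called lower in the Jumonji members, and in the Renilla members most reached a 2-fold call only at a higher threshold. In the Jumonji members 33 of 45 genes of the large ribosomal subunit and 29 of 32 of the small subunit were called lower, 0 higher, with medians of -1.21 and -1.32. Rpl35a stood at 1290 against 4225 CPM (log2 -1.71) and Rps27 at 837 against 2594 CPM (-1.63). In the Renilla members 2 of 45 and 2 of 32 were called lower, with medians of -0.37 and -0.32, although 42 and 25 had log2 ratios below 0. With the members taken above 15%, a threshold added after the ribosomal shares had been seen, 39 of 45 and 30 of 32 Renilla genes were lower, with medians of -1.56 and -1.59, and 40 of 45 and 30 of 32 Jumonji genes, with -1.43 and -1.64. Processed copies of ribosomal genes share sequence with them, so reads may be split between copies.

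Of the 2601 genes counted in both libraries, 98 were lower in both (3.77%), which is 45.2% of the 217 lower in the Renilla library and 30.1% of the 326 lower in the Jumonji library. Tmsb4x (chromosome X, 167207093 to 167209315, minus strand), which encodes the short actin-binding peptide thymosin beta 4, stood at 1101 CPM beside 4471 in the others (Renilla) and 2294 beside 10629 (Jumonji), with log2 ratios of -2.02 (-2.22 to -1.84) and -2.21 (-2.31 to -2.11). Single Renilla members ranged from 0 over a median of 611 to 7011 CPM, and the others from 481 over 3587 to 30879. Ftl1, the ferritin light chain gene, had -1.56 and -1.50, Hmgn2, a nucleosome-binding protein gene, -2.02 and -1.83, H3f3a, a histone H3.3 gene, -1.66 and -1.43, and Pfn1, the profilin gene, -1.298 and -1.18. The rule also named Btf3, a nascent-chain binding protein gene, with -1.34 and -1.38, and Lsm5, an RNA-binding protein gene, with -1.77 and -1.84. Both Tmsb4x and Ftl1 fell stepwise across the threshold, Tmsb4x in the Jumonji library from 10525 CPM between 2% and 4% over 4992 between 6% and 10% to 2547 between 10% and 15%. Of the actin cytoskeleton list, 5 of 21 counted genes were lower in the Renilla members and 8 of 21 in the Jumonji members, 0 higher, while Actb had log2 ratios of 0.25 and -0.52.

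Nuclear genes for mitochondrial proteins were not high as a group. The 45 counted respiratory complex genes had medians of -0.43 and -0.64, with 2 higher and 7 lower in the Renilla members and 3 higher and 7 lower in the Jumonji members. Uqcrb, a small complex III subunit gene, had -1.74 and -0.73, and Ndufa13, a complex I subunit gene, had 0.80 and 1.88. Of the mitochondrial ribosome genes 6 of 31 and 11 of 29 were lower and 0 higher, with medians of -0.48 and -0.62. Aifm1, which encodes the flavoprotein apoptosis-inducing factor, had 1.40 and 2.22.

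Glycolysis and cell cycle lists had more genes called higher in the Renilla members than in the Jumonji members, although the difference between the libraries was not tested. Over all counted genes, 20.9% were called higher in the Renilla members and 28.6% in the Jumonji members, and the list counts are read beside these shares. Glycolysis genes had 6 of 14 counted members higher in the Renilla library (median 0.89) and 2 of 13 in the Jumonji library (median -0.37). Pkm, the pyruvate kinase gene, stood at 1977 CPM in Renilla members, where the others had 894, and 895 CPM in Jumonji members, where the others had 1015. The glucose transporter gene Slc2a1, whose protein spans the membrane, was high in both, at 3.33 and 2.34. S phase genes had 10 of 32 higher and 1 lower (Renilla, median 0.60) and 2 of 25 higher and 1 lower (Jumonji, median 0.06). G2/M genes had 13 of 34 higher and 3 lower (median 0.78) and 8 of 32 higher and 2 lower (median -0.13). Mki67, a long proliferation antigen gene, stood at 1.803 and 1.52, and the short cyclin-dependent kinase cofactor gene Cks1b at -1.51 and -1.19, so the G2/M list did not move one way. Within the members' depth range the Jumonji medians of the S phase and G2/M lists were 1.501 and 1.40, and Cks1b turned to 0.42 there. Against all other barcodes, proteasome genes had medians of -0.18 and -0.24, below the 0.28 and 0.18 of all counted genes. Of 30 counted, 3 were higher and 2 lower in the Renilla members, and 0 were called in the Jumonji members. Above 15%, 9 were higher and 3 lower (Renilla, median 0.04), and 0 higher and 7 lower (Jumonji, median -0.60).

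Cell death and stress lists had few counted genes, so their calls are hard to set apart from the share over all genes. Above 10%, that share was 20.9% higher and 7.43% lower in the Renilla members and 28.6% and 11.1% in the Jumonji members. Some lists had more genes called above 15%. There, 1308 of 3276 Renilla genes were higher and 513 lower overall in the count, and 965 and 505 of 3035 Jumonji genes. Of the counted BCL2 family genes, 1 of 5 was higher and 1 lower in the Renilla members and 1 of 7 higher and 1 lower in the Jumonji members. Bcl2, the gene of a survival protein anchored in organelle membranes, was the one called higher in both, at 2.10 and 2.90, and Bax, the gene of a pore-forming death protein, stood at -1.52 and -0.34. Of the p53 target list 0 of 5 and 0 of 4 were higher, with 2 and 0 lower, and of the ATF4 response list 1 of 8 and 1 of 7 were higher, in both libraries Slc3a2, which encodes a membrane glycoprotein (1.67 and 1.82). Heat shock genes had 2 of 7 and 1 of 6 higher. Immediate early genes, which rise when cells are stressed during handling, had 2 and 1 counted members, of which 0 were 2-fold apart. In the Renilla members above 15%, 5 of 9 ATF4 response genes, 4 of 6 heat shock genes and 2 of 3 immediate early genes were called higher, with medians of 1.02, 1.10 and 1.08, beside 0.66 over all counted genes. In the Jumonji members above 15% the medians of the ATF4 and heat shock lists were -0.44 and -0.23. The list of caspases and death execution had 2 of 4 counted genes higher and 1 lower in the Renilla members above 10% (median 0.85). Above 15% it had 3 of 5 higher and 1 lower (median 1.82). In the Jumonji members it had 1 of 4 higher and 0 lower above 10% (median -0.02), and 2 of 5 higher and 1 lower above 15% (median 0.63).

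**Figure D4:**
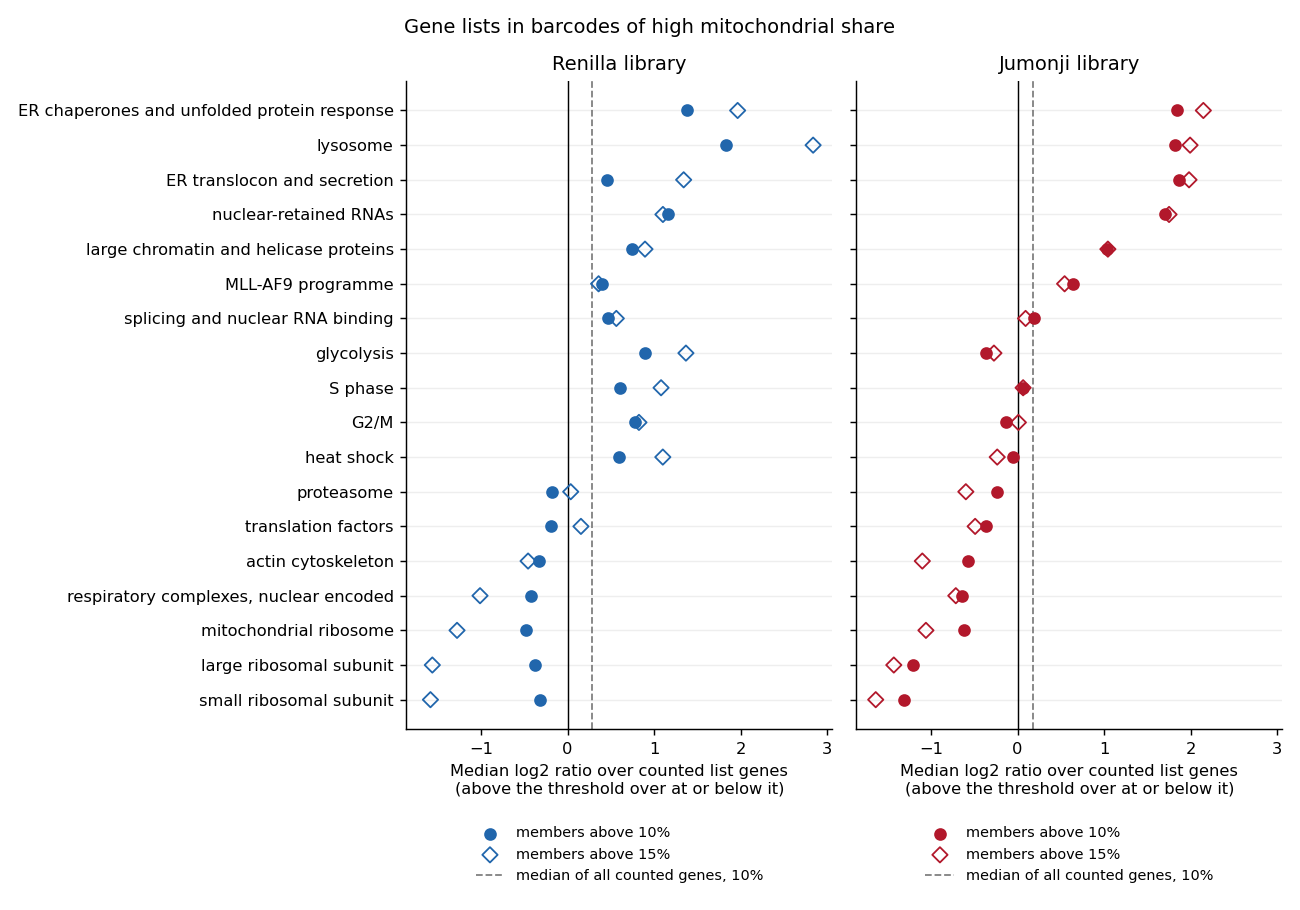
Median log2 ratio over the counted genes of 18 gene lists, members over the other barcodes, with members taken above 10% (filled) or above 15% (open), in the Renilla and Jumonji libraries. ER and lysosome lists lie at the right in both libraries, and the ribosomal medians of the Renilla library move from -0.37 and -0.32 to -1.56 and -1.59 with the higher threshold.

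Several genes were high in the Jumonji members and scarce in the Renilla members. Ctla2a, a cysteine protease inhibitor gene, stood at 728 against 28.6 CPM, a log2 ratio of 4.67 (4.43 to 4.90), from 260 UMIs in the members, of which 1 barcode held 18.1%. Its near-identical copy Ctla2b could take part of its reads. Cpa3, which encodes a carboxypeptidase of mast cells and of some progenitors, stood at 579 against 7.15 CPM (6.34, 5.98 to 6.72), and 1 barcode held 33.3% of its 207 UMIs. The remaining genes of the mast cell and basophil list were at 0 to 12 UMIs in the Jumonji members, with Ms4a2 and Fcer1a at 0. Within the members' depth range the ratios were 1.597 for Ctla2a and 3.14 for Cpa3. Between 6% and 10% mitochondrial share, below the threshold, they already stood at 404 and 153 CPM. Itgb7, an integrin gene, had 3.57, Pecam1, an adhesion molecule gene, 3.91, and P2ry14, a nucleotide receptor gene, 3.90. These 3 proteins lie in the cell membrane.

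The Ifitm genes, which encode small antiviral membrane proteins, belonged to the Jumonji members as well. Ifitm1 (chromosome 7, 140967221 to 140969825, plus strand) stood at 6920 CPM (6650 to 7198) against 981 in the Jumonji library and at 353 CPM (277 to 443) against 227 in the Renilla library, with log2 ratios of 2.82 and 0.63. The median Jumonji member had 6506 CPM and the highest 29526. Along the mitochondrial share the Jumonji level went from 884 CPM between 2% and 4% to 4579 between 6% and 10% and 8100 between 15% and 25%. Ifitm2, Ifitm3 and Bst2, a tetherin gene, had 1.95, 1.92 and 1.798 in the Jumonji library and -0.29, -0.11 and -0.12 in the Renilla library. These 4 genes were all that was counted of the 20 genes of the interferon list in the Jumonji library. Within the members' depth range Ifitm1 had 1.17 there.

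Calprotectin and stefin genes were nearly absent from the Jumonji members. S100a8 and S100a9, which encode the subunits of this neutrophil protein, stood at 8.39 against 512 CPM and 5.60 against 347 CPM, from 3 and 2 UMIs in the 77 members (log2 ratios of -5.93 and -5.95, with upper bounds of -4.38 and -4.10). S100a8 was also at 0 UMIs in the 26 Jumonji barcodes between 6% and 10%, and at 187 and 424 CPM between 4% and 6% and between 2% and 4%. The stefin genes Gm5483 and BC100530, whose near-identical copies may share reads, had -6.32 and -5.25. In the Renilla members S100a8 and S100a9 were at 572 and 529 CPM against 66.6 and 43.3, but 1 barcode held 99.2% and 97.3% of those UMIs. Without it 1 and 3 UMIs were left, with log2 ratios of -3.78 and -1.57.

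Most lists of other cell types had no gene that reached the minimum level for counting. Erythroid genes were at 0 UMIs in the members for all 6 markers in both libraries. The T cell genes Cd3e and Cd3g and the B cell gene Ms4a1 were at 0 in members and other barcodes alike. In the T and NK cell list Nkg7, a cytotoxic granule gene, had 8 Renilla and 19 Jumonji UMIs in the members, at 38.1 CPM beside 28.2 and 53.2 beside 28.7 in the others. The megakaryocyte list summed to 0.00143% beside 0.000719% (Renilla) and 0.00700% beside 0.00210% (Jumonji), where Itga2b, an integrin gene also found on progenitors, had 19 UMIs, at 53.2 CPM beside 5.94. The summed level of the eosinophil list was 0.00238% of Renilla and 0.00168% of Jumonji members' UMIs. In the stromal and endothelial list Pdgfrb, a growth factor receptor gene, stood at 61.6 CPM beside 13.0 (Jumonji) and 9.53 beside 10.9 (Renilla). Besides S100a8, S100a9 and Cpa3, described above, only monocyte and macrophage markers were counted. Of these, 1 of 3 counted genes was higher in the Renilla members (median 0.37) and 2 of 4 in the Jumonji members (median 1.55). The summed level of the monocyte and macrophage list was 0.0710% against 0.0614% and 0.208% against 0.0812%. Adgre1, named above, and the protease gene Ctss, at 302 against 66.3 CPM, were the genes called higher in the Jumonji members. Csf1r, a receptor gene of the lineage, was at 0 UMIs in the Renilla members. In the Jumonji members it had 8 UMIs, at 22.4 CPM beside 13.2 in the others. Ccr2, Cd68 and Fcgr1 did not reach the minimum level but were also higher in the Jumonji members. They stood at 81.1 beside 11.7, 64.4 beside 24.8 and 25.2 beside 9.96 CPM. Within the members' depth range the Jumonji median of the list was -0.20. The part of such cells in the Jumonji ratios was not tested. RNA from broken cells floating in the droplets was not measured.

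Between the libraries, members were compared with members. Of 3327 genes counted, 558 were called higher in Jumonji than in Renilla members (16.8%) and 439 lower (13.2%), with a median log2 ratio of -0.05. Among barcodes at or below 10% the counts were 85 and 13 of 2651. The members held 357376 Jumonji and 209894 Renilla UMIs, and the other barcodes 12452752 and 13914817. Calls take no account of counting error, which is larger in the members, so the counts of calls are not comparable. Wfdc17, a secreted protease inhibitor gene, had 455 UMIs in the Jumonji members and 0 in the Renilla members. Against a floor of 3 UMIs over the Renilla group it was at least 6.48 higher on the log2 scale, beside a log2 ratio of 4.63 in the other barcodes. Ifitm1 had 4.29 (2.11 in the other barcodes), Cst7, a cystatin gene, 4.29 (1.48), Ctla2a 5.25 (1.54, from 4 Renilla UMIs), and B2m, the light chain gene of MHC class I, 3.26 (1.09). Mpo had -3.45 (-3.16), Ctsg -2.13 (-2.70) and Ms4a3 -2.64 (-1.98), with the same direction in the members and in the other barcodes.

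Differences between the members in ribosomal and ER lists were smaller at the higher threshold, while others were not. Genes with an N-terminal stretch had a median Jumonji-to-Renilla log2 ratio of 0.95 in the members and 0.23 in the other barcodes, and genes with neither had -0.31 and -0.07. Large and small ribosomal subunit genes had medians of -0.89 and -1.02 in the members and -0.07 and -0.09 in the others. With members above 15% in both libraries (22 Renilla and 39 Jumonji barcodes), the ribosomal medians were -0.02 and 0.03, the lysosome median went from 1.02 to 0.04, the median of the ER chaperones from 0.65 to 0.16, and that of the translocon list from 0.69 to 0.04. Rps12 went from -2.18 to -1.06 and Rps27 from -1.03 to 0.50. The interferon list kept a median of 2.78 (3.22 above 10%), Mpo reached -4.68 and the glycolysis median went from -0.69 to -1.58. Above 15% the split of called genes turned to 502 higher and 825 lower. Depth moved with these comparisons as well, and its part in them was not tested.

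**Figure D5:**
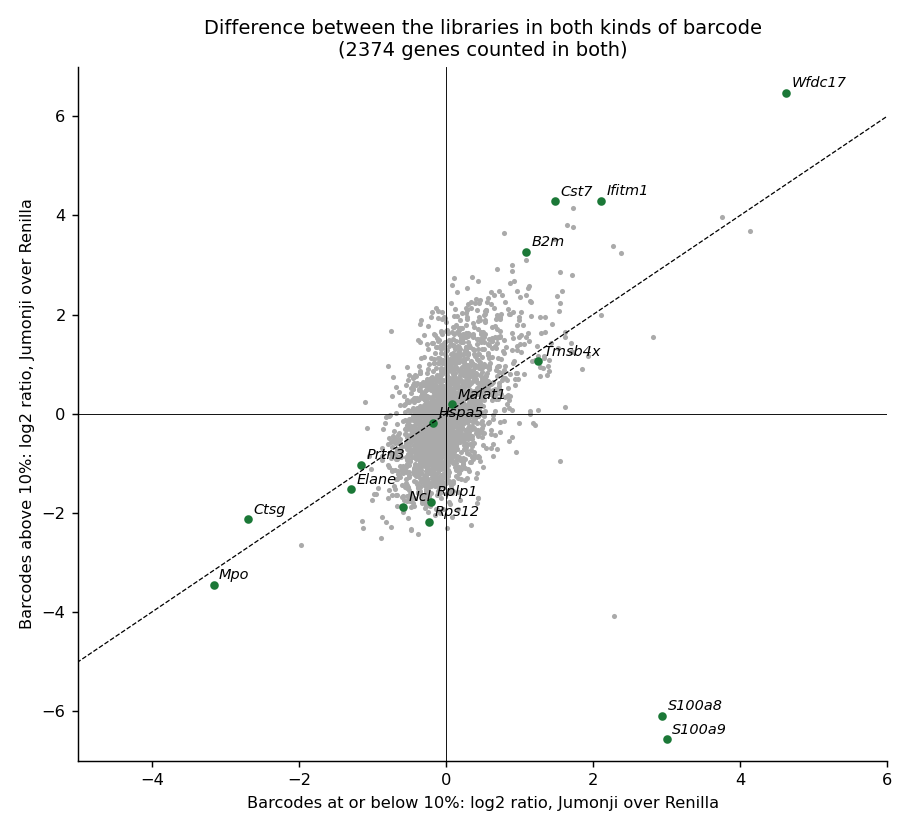
Log2 ratio of CPM, Jumonji over Renilla, among members (vertical) against the same ratio among barcodes at or below 10% (horizontal) for the 2374 genes counted in both, with the line of equal ratios dashed. Mpo and Ctsg lie near the line, Rps12 and Rplp1 lie below it at -2.18 and -1.78, Ifitm1 and B2m lie above it at 4.29 and 3.26, and Wfdc17 is drawn against a floor of 3 Renilla UMIs.

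With every barcode thinned at random to 2000 non-mitochondrial UMIs, the median number of genes was higher in the members, with 1041 against 977 in the Renilla library and 1151 against 971 in the Jumonji library. At full depth they showed fewer, 2038 against 4328 and 1874 against 4164.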

How the data were processed

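Droplet single-cell RNA-seq libraries of 2 conditions, 1 library each, were analysed. The deposited matrices hold whole-number UMI counts per gene and barcode, made by the authors with Cell Ranger 1.3.1 on mm10, per the submitters' processing notes; the annotation and the cell-calling rule were not stated there. Members were barcodes above 10% mitochondrial UMIs, and UMIs were summed per group and scaled to non-mitochondrial UMIs. Genes with a mean of at least 50 CPM were counted and called at 2-fold. Log2 ratios carry exact conditional binomial 95% intervals and levels exact Poisson 95% intervals, for counting error only. A floor of 3 UMIs stood for a count of 0. Doublets were marked by Scrublet (scanpy 1.11.5) and not removed. Proteins were translated from the longest coding sequence of GENCODE M21, since no protein table was given, and 21233 of 27998 gene identifiers had one. A mean Kyte-Doolittle hydropathy of at least 2.2 over 10 residues within the first 35 made an N-terminal stretch, and one of at least 1.6 over 19 residues after them an internal one. Thinning drew 2000 UMIs per barcode. Scripts used Python 3.11.15, numpy 2.4.6, scipy 1.17.1 and pandas 2.3.3 and were tested on simulated data.

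The members and gene lists were chosen with earlier results of these data known. Named genes were the mitochondrial genes, 10 genes known from earlier results, and the 12 genes in each direction whose interval lay farthest from 0, per library, in both libraries and between libraries. For each list they were the 2 highest, the 2 lowest and those 2-fold apart. Alternatives were other thresholds, scalings and minimum levels, a contrast within the members' depth range and leaving out the barcode with most UMIs of a gene. The use of GENCODE proteins and the list counts at 15% were chosen after seeing the data.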

Additional observations from a re-analysis of the deposited data

Results flagged for a closer look

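For 5 genes the members of the libraries lay at least 2-fold from the other barcodes in opposite directions, and this difference was not tested. S100a8 had log2 ratios of 3.10 in Renilla and -5.93 in Jumonji, S100a9 3.61 and -5.95, and the stefin gene BC100530 1.12 and -5.25. In these genes 1 Renilla barcode held 99.2%, 97.3% and 92.5% of the members' UMIs. Hdc, the histidine decarboxylase gene, had 1.01 and -1.03, and Tmem261 -1.18 and 1.08.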

How the results depend on the processing

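With 1 library per condition, depth (medians of 4345 and 4038 UMIs in the members) limits every ratio of a scarce gene. Members taken above 15% made up 3.38% of Renilla and 5.98% of Jumonji barcodes, and above 20% they made up 2.76% and 1.69%. Renilla genes called higher then numbered 1308 and 1409 and those lower 513 and 582. Jumonji genes called lower numbered 505 and 600, and genes lower in Jumonji than in Renilla members 825 and 936. Scaling to all UMIs gave 370 higher and 352 lower Renilla genes, and centring on the median 385 and 422. Minimum levels of 20 CPM, 100 CPM and 1 UMI gave 1335, 273 and 7221 higher Renilla genes and 393, 134 and 647 lower ones. They gave 1607, 486 and 6912 higher Jumonji genes, and with 1 UMI 807 lower ones. Between the members they gave 1010, 353 and 1548 genes higher in Jumonji and 833, 225 and 2487 lower. Within the members' depth range 136 Renilla genes were lower.

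Renilla BC100530 turned to -2.78 above 15%, -2.46 above 20% and -2.59 without its leading barcode, from 1, 1 and 3 UMIs. S100a9 turned to -0.96, -0.64 and -1.57 from 2, 2 and 3 UMIs. S100a8 had 0 UMIs above 15% and 20%, where -0.93 and -0.61 stand for a floor of 3 UMIs and are upper bounds, and -3.78 from 1 UMI without its leading barcode. Within the members' depth range Renilla Cpa3 turned to -0.16 and the Jumonji values of Hdc to 0.054, Cks1b to 0.42, Ctss to -0.53, Neat1 to -0.21 (-0.18 above 20%) and the monocyte and macrophage median to -0.20. Apart from the small counts and the leading barcode, the cause was not tested. Of 944 alternative values of the main genes, lists and protein classes, 769 stayed within the counting interval (genes) or the standard deviation over genes (lists and classes), 159 moved further and 16 reversed. Part of the 769 could not move, because a change of the minimum level leaves the ratio of a single gene as it was. Only results at least 2-fold apart in the main setting could be marked as reversed. These counts therefore do not measure how firm the results are. Over all named results at least 2-fold apart within a library, 17 of 429 for genes and 3 of 18 for lists reversed at least once. No paired analysis was possible because each condition had 1 library.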
